A study of Sus scrofa with 6 samples.

Results

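Ephrins, Eph receptors, semaphorins, plexins, neuropilins, SLITs and ROBO receptors are contact and guidance molecules through which cells attract, repel and sort one another, and their genes are called guidance genes here. Genes were taken from a table of RNA levels by their symbol, that is, by the prefix EPHA, EPHB, EFNA, EFNB, SEMA, PLXNA to PLXND, ROBO, SLIT or NRP followed by a number and, where present, a letter from A to G, together with PLXNC1 and PLXND1. The rule found 55 of the 18007 genes in the table. They are 4 ephrin-A and 3 ephrin-B ligands, 7 EPHA and 5 EPHB receptors, 19 semaphorins, 9 plexins, 2 neuropilins, 2 SLITs and 4 ROBO receptors.

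Pig embryonic fibroblasts (PEFs) were compared with the induced pluripotent stem cells (piPSCs) made from them, a comparison that asks which genes differ between the starting cells and the reprogrammed lines. PEF5, PEF7 and PEF8 were grown from the ear tips of embryos of a Large White boar (written Longwhite in the labels) and a Meishan sow, taken at embryonic day 90. piPSC5, piPSC7 and piPSC8 were each derived from the like-numbered PEF line after infection with the lentiviral vectors TetO-FUW-OSKM, which carries Oct4, Sox2, Klf4 and cMyc under a doxycycline-dependent promoter, and FUW-M2rtTA, its activator. Colonies formed in LF2i medium were picked onto feeder layers of mouse embryonic fibroblasts and are described in the study as doxycycline-dependent. Each of the 6 libraries stands for 1 line in 1 state, and no line has replicates. RNA with a poly-A tail was sequenced from both ends, and the levels are the deposited FPKM values, that is, fragments scaled by the length of the gene and the size of the library. The total behind them was 17836510 fragments in PEF5, 16713472 in PEF7, 15146576 in PEF8, 15050204 in piPSC5, 11892011 in piPSC7 and 11010629 in piPSC8. Where 0 fragments were counted, up to 3 are allowed for, and all limits and intervals of this kind cover counting error only.

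Eph receptors are receptor tyrosine kinases that meet their ephrin ligands on the surface of a neighbouring cell, so that both cells receive a signal and often part from each other. Semaphorins signal through plexins, and the secreted class 3 semaphorins mostly need a neuropilin as a co-receptor, while SLITs are large secreted repellents read by ROBO receptors. The families are best known for guiding axons and blood vessels, and in connective tissue they also steer the migration and sorting of mesenchymal cells.

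The labels were checked against marker genes. Of 12 fibroblast markers, 11 were called lower in piPSCs. Their summed FPKM was 4708, 6643 and 5321 in PEF5, PEF7 and PEF8 and 233, 132 and 160 in piPSC5, piPSC7 and piPSC8. The collagen gene COL1A2 was the most abundant of them by mean in PEFs at 1703, 2376 and 1414, with COL1A1 above it in PEF7 and COL3A1 in PEF8, and COL3A1 was the most abundant in piPSCs at 94.2, 109 and 125. The fibroblast markers went the same way as the 11 lower guidance genes, and what part a loss of fibroblast RNA has in those 11 was not tested. Of 14 pluripotency markers, 10 were in the table, 3 were tested and 0 were called by limma, while 2 had an unadjusted p under 0.05 and 2, SOX2 and LIN28B, were called higher by limma's voom on fragments. Their summed FPKM was 0.388, 0.340 and 0.573 in the PEF libraries and 6.53, 5.25 and 9.40 in the piPSC libraries, where the RNA-binding gene LIN28B was the most abundant by mean at 2.51, 0.281 and 8.90, above SOX2 in piPSC8 alone. NANOG was at 0, 0.0919 and 0 in the 3 piPSC libraries, ZFP42 and UTF1 were at 0 in all 3, SOX2 was at 3.01, 2.49 and 0.129, and SALL4, ESRRB, EPCAM and CDH1 were under 0.2 FPKM in each. A feature described as POU5F1 (ENSSSCG00000001393) had 0, 2 and 1 fragments. The name piPSC is therefore used as the name of the lines, while NANOG, POU5F1 and most other defining pluripotency markers were at or near 0 in the RNA of this table. The study itself reports low mRNA of endogenous Oct4, Nanog, Sall4 and Esrrb, with Sox2 and Lin28b relatively high, and describes the reprogramming as incomplete. It also reports positive alkaline phosphatase staining and positive immunofluorescence for Oct4 in its piPSCs.

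The study describes the 3 lines as male, but RNA of Y-linked genes was found only in line 8, apart from 1 fragment of UTY. DDX3Y, a Y-linked RNA helicase gene, stood at 25.3 FPKM in PEF8 and 42.5 in piPSC8 and had 0 fragments in the other 4 libraries. EIF1AY was at 11.7 in PEF8 and 13.3 in piPSC8, and KDM5D at 1.84 and 2.27, each with 0 elsewhere. UTY was at 1.07 and 2.72, with 1 further fragment in piPSC5. Line 8 thus stood apart from lines 5 and 7, and the counts were repeated without both of its libraries, an alternative chosen after seeing the data.

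The guidance genes took up a small and lower share of the RNA in piPSCs. Their summed FPKM was 528, 389 and 508 in PEF5, PEF7 and PEF8 and 189, 179 and 162 in piPSC5, piPSC7 and piPSC8. That is 0.157%, 0.112% and 0.146% of all FPKM in the PEF libraries and 0.0450%, 0.0409% and 0.0372% in the piPSC libraries, with no overlap between the groups. The secreted repellent SEMA3C led in each PEF library. In piPSC5 and piPSC7 the plexin PLXNB2 led, and in piPSC8 the neuropilin NRP2. In bulk samples such as these, fewer cells of a type and less RNA per cell cannot be told apart.

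The 2 groups were compared by limma on log2(FPKM + 1) over 12428 genes with a mean of at least 0.5 FPKM, and a gene was called when its change was at least 2-fold with an adjusted p under 0.05. Of the 55 genes, 41 passed the filter and 14 did not, and no library of those 14 exceeded 0.889 FPKM. Among the 41 tested, 5 were called higher in piPSCs (12.2%, against 20.2% of all tested genes) and 11 were called lower (26.8%, against 16.7% of all). The median log2 change was -0.47 over the tested guidance genes and 0.20 over all tested genes. All 16 called genes moved the same way in 3 of 3 lines, and in none of them did the groups overlap. The call itself makes this likely, and the share over all called genes is not given, so it is no separate result about these genes. Genes at low levels pass the filter more easily through the group where they are high, so these shares describe the tested genes and not all 55. In all, 3 of the 55 had 0 fragments in every PEF library and 3 others had 0 in every piPSC library.

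The scale of the values bears on the balance of directions. Among all called genes, 54.8% were higher in piPSCs on the deposited scale, against 42.8% when each library was rescaled by its median gene ratio and 41.4% when rescaled to a sum of 1000000. The median log2 change of all tested genes went from 0.20 to -0.01 and -0.06. Under each rescaling 5 guidance genes were called higher and 15 lower, and none of the 16 lost its call. Without line 8, 6 were called higher and 10 lower. The fits measure the spread between lines, and an exact permutation test of 3 libraries against 3 is bounded at a p of 0.1, so such tests are left out.

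Fold changes on log2(FPKM + 1) understate the ratio of genes that are near 0 in either group. With a pseudocount of 0.1 in place of 1, the changes of EPHA7, EPHA5, ROBO2, SEMA3E and SEMA7A were 6.31, 5.49, 5.72, 3.40 and -4.89, and with limma's voom on fragments they were 10.95, 8.62, 7.90, 6.55 and -6.23. Voom also gave 3.67 for EFNA5, -4.72 for PLXND1 and -4.21 for SEMA3B, and all 8 kept their direction and call.

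**Figure D1:**
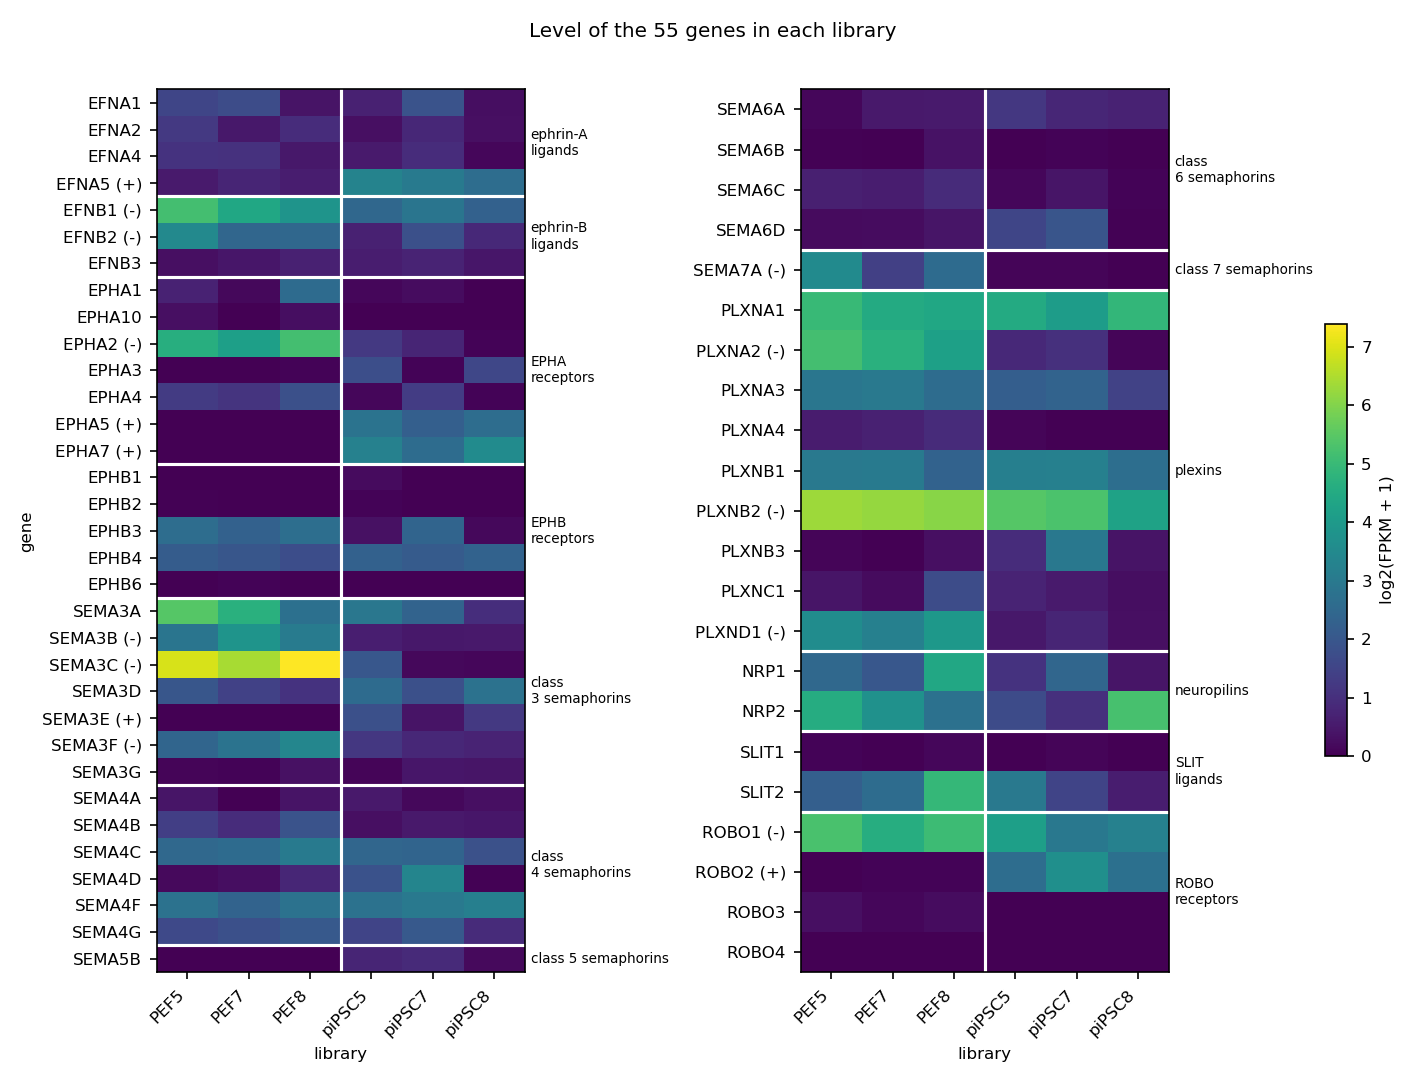
Level of the 55 genes in the 6 libraries as log2(FPKM + 1), ordered by role, with (+) and (-) marking the 5 genes called higher and the 11 called lower in piPSCs. SEMA3C, at 122, 85.1 and 167 FPKM in the PEF libraries, is the brightest row there and is near 0 in piPSC7 and piPSC8.

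Among the EPHA receptors, the receptor that dominated PEFs gave way to a different pair in piPSCs. EPHA2 (ENSSSCG00000003471, chromosome 6 from 75249935 to 75280107 on Sscrofa11.1) is a receptor for ephrin-A ligands that is common in epithelia and cultured mesenchymal cells. It stood at 23.8, 17.1 and 35.7 FPKM in PEF5, PEF7 and PEF8 and at 1.32, 0.686 and 0.0559 in piPSC5, piPSC7 and piPSC8. Every PEF library was far above every piPSC library, and piPSC8 was the lowest with 4 fragments. EPHA2 fell by 3.99 on the log2 scale (SE 0.38, limma adjusted p = 0.00054). It made up 91.1%, 93.0% and 82.1% of the summed FPKM of the 7 EPHA receptors in the PEF libraries and 7.13%, 6.10% and 0.307% in the piPSC libraries.

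EPHA7 and EPHA5 are EPHA receptors best known from the developing brain, where they respond to ephrin-A5 among other ligands. EPHA7 (ENSSSCG00000004336, chromosome 1 from 60770686 to 60944126) had 0 fragments in all 3 PEF libraries and stood at 8.53, 5.15 and 10.9 FPKM in piPSC5, piPSC7 and piPSC8. Measured against a floor of 3 fragments in each PEF library, its mean level was at least 344-fold higher in piPSCs, and on the fitted scale it rose by 3.15 (SE 0.28, limma adjusted p = 0.000469). EPHA7 became the most abundant EPHA receptor, with 46.1%, 45.8% and 59.6% of the EPHA sum. EPHA5 (ENSSSCG00000008919, chromosome 8 from 63286378 to 63604734) was counted with 2, 0 and 2 fragments in PEFs and stood at 6.03, 3.69 and 5.26 FPKM in piPSCs. All 3 piPSC lines carried it and no PEF line did beyond 2 fragments. Its pooled ratio was 441 (95% exact Clopper-Pearson interval 172 to 1620), and 293 without PEF7. It rose by 2.55 on the log2 scale (SE 0.23, limma adjusted p = 0.00049). The summed level of the EPHA class was 29.3 ± 12.8 FPKM in PEFs and 16.0 ± 4.11 in piPSCs (SD over 3 lines). The ranges overlap at PEF7 (18.3) and piPSC5 (18.5), so between groups the make-up of the class differed more plainly than its sum. Within lines 5, 7 and 8 the sum went from 26.1 to 18.5, from 18.3 to 11.2 and from 43.4 to 18.2, lower in each.

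The promoters of EPHA7 and EPHA5 are shown because both genes were silent or nearly so in PEFs and moved together in all 3 lines. They are RefSeq sequences of Sscrofa11.1 on the strand of the gene, running from 250 bases before the start to 50 bases from it, at chr1:60944043-60944342 on the minus strand for EPHA7 and chr8:63604685-63604984 on the minus strand for EPHA5. They are the 2 largest increases among the 7 called guidance genes whose deposited start lay within 100 bases of the RefSeq start. Capitals mark GGGCGG, the core of SP1-type sites, or its complement CCGCCC.
EPHA7: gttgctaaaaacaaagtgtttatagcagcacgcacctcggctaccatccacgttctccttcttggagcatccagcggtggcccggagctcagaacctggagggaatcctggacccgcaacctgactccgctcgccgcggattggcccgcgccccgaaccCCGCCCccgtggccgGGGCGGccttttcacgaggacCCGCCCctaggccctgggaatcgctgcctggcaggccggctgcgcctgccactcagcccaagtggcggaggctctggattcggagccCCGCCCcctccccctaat
EPHA5: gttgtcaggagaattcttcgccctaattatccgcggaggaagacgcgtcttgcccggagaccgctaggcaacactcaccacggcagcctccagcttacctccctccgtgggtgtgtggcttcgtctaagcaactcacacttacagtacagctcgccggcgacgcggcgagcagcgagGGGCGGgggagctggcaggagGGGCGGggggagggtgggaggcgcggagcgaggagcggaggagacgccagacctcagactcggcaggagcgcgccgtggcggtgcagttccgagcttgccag
The EPHA7 promoter holds 4 matches and 25 CG dinucleotides, more CG than 69.1% of 19556 pig promoters of the same length. The EPHA5 promoter holds 2 matches and 30 CG dinucleotides, more than 78.6%. GGGCGG on either strand is in 50.6% of all promoters, so its presence here is common. TGANTCA, the AP-1 motif, and ATTTGCAT, the octamer motif, were also searched on both strands and have 0 matches in either window, against 6.07% and 1.39% of all promoters. These counts describe the letters and show no binding.

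The other EPHA receptors listed by symbol were not called, and several differed from line to line. EPHA1, EPHA3 and EPHA4 passed the filter, and EPHA1 exceeded 1 FPKM in PEF8 alone, at 4.99. EPHA10 did not pass the filter, with at most 0.224 FPKM in PEFs and 0 fragments in piPSCs. The EPHB receptors, which bind mainly the ephrin-B ligands, had 0 genes called by limma among the 2 tested, with 1 at an unadjusted p under 0.05 and 1 called lower by voom, which is EPHB3. EPHB3 led in PEFs at 5.26, 3.94 and 5.42 FPKM and stood at 0.262, 4.23 and 0.126 in piPSC5, piPSC7 and piPSC8. piPSC7 lay within the PEF range while piPSC5 and piPSC8 lay near 0. Its limma adjusted p was 0.0611, and it was called lower under both rescalings (-1.74, adjusted p = 0.0392, and -2.41, adjusted p = 0.0425), with limma's voom (-3.17, adjusted p = 0.0323) and without piPSC7 (-2.29, adjusted p = 0.00221). EPHB4, the receptor of ephrin-B2 on veins, led by mean in piPSCs, though not in piPSC7, at 3.92, 3.32 and 4.02 FPKM and stood at 3.48, 2.96 and 2.34 in PEFs. The groups overlapped, though EPHB4 was higher in each piPSC line than in the PEF line of the same number. Its position overlaps TRIP6, SRRT, SLC12A9 and ZAN on the opposite strand. The library kit keeps no strand information, so RNA of such overlapping genes cannot be told apart here, and 10 of the 55 genes overlap another listed gene. EPHB1, EPHB2 and EPHB6 were under 0.2 FPKM in each library.

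Of the ligands, 1 ephrin-A gene was called higher and 2 ephrin-B genes were called lower, on the deposited scale and under both rescalings. EFNA5 (ENSSSCG00000036520, chromosome 2 from 112534950 to 112817478) encodes ephrin-A5, a ligand held in the membrane by a lipid anchor and read by EPHA receptors including EPHA5 and EPHA7. It stood at 0.458, 0.711 and 0.514 FPKM in PEFs and at 8.89, 7.17 and 5.20 in piPSCs. The lowest piPSC line was well above the highest PEF line. EFNA5 rose by 2.35 on the log2 scale (SE 0.24, limma adjusted p = 0.000701). It held 9.44%, 16.0% and 24.2% of the ephrin-A sum in PEFs and 87.3%, 62.1% and 90.4% in piPSCs. EFNA1, another lipid-anchored ligand, was the most abundant by mean in PEFs among those listed by symbol at 1.92, 2.26 and 0.310 FPKM and stood at 0.611, 2.71 and 0.213 in piPSCs. Its groups overlapped, with PEF8 and piPSC8 low and piPSC7 the highest. EFNA2 and EFNA4 were tested and not called, each at no more than 1.36 FPKM. The ephrin-A sum, over the 4 genes listed by symbol and so without EFNA3, was 3.81 ± 1.47 in the PEF group. In the piPSC group it was 9.16 ± 3.03 (SD over 3 lines). It was higher in piPSCs than in the PEF line of the same number in each of the 3 lines.

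EFNB1 and EFNB2 encode ephrin-B ligands that span the membrane and signal back into the cell that carries them. EFNB1 (ENSSSCG00000032728, chromosome X from 54949094 to 54961361), whose human counterpart is mutated in craniofrontonasal syndrome, was the most abundant ephrin-B in both groups. It stood at 35.0, 20.3 and 13.2 FPKM in PEFs and at 4.51, 6.27 and 3.95 in piPSCs. The lowest PEF line, PEF8, was above the highest piPSC line, piPSC7. EFNB1 fell by 1.93 on the log2 scale (SE 0.36, limma adjusted p = 0.00522). EFNB2 (ENSSSCG00000009535, chromosome 11 from 74184992 to 74233460), a marker of arteries in the embryo, stood at 10.1, 4.44 and 4.53 FPKM in PEFs and at 0.607, 2.47 and 0.793 in piPSCs. PEF5 was the highest, and piPSC7 came nearest to the PEF lines. EFNB2 fell by 1.69 (SE 0.42, limma adjusted p = 0.0151). Its call was lost without piPSC5 (-1.48, adjusted p = 0.0527) and without line 8 (-1.72, adjusted p = 0.0502). EFNB3 stayed at or under 0.649 FPKM and was not tested. It lies on the same strand as KDM6B and inside it, and so cannot be told apart from that gene. The ephrin-B sum was 29.6 ± 14.0 FPKM in PEFs and 6.70 ± 2.34 in piPSCs (SD over 3 lines).

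**Figure D2:**
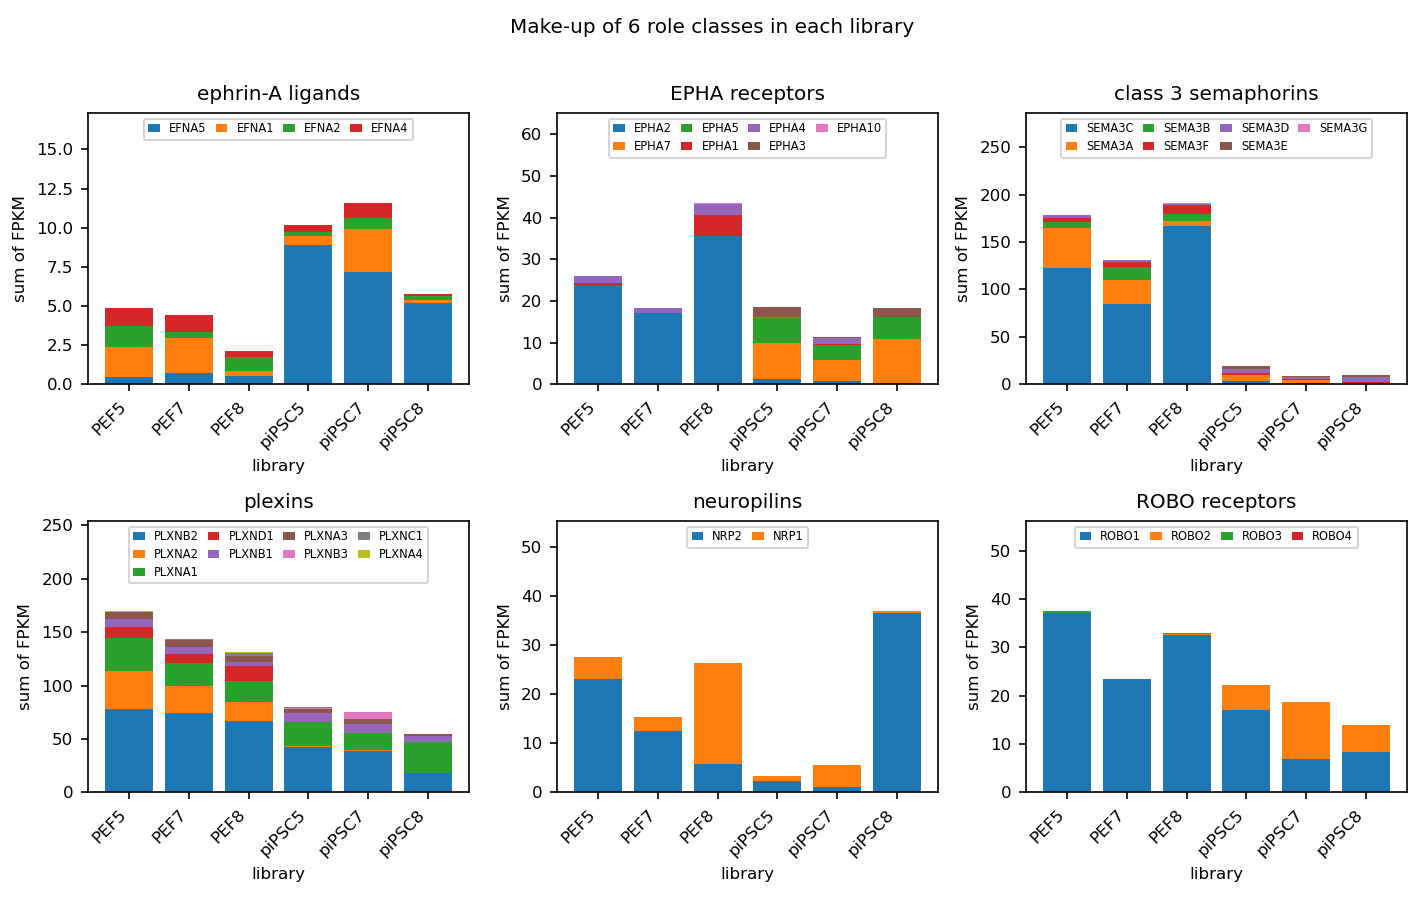
Summed FPKM of 6 role classes in each of the 6 libraries, as stacked bars with 1 colour per gene. EPHA2 fills 91.1%, 93.0% and 82.1% of the EPHA bars in PEFs, while ROBO2 appears in the piPSC bars beside ROBO1.

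The secreted class 3 semaphorins had the greatest difference in mean summed FPKM of the 13 role classes. Their sum was 179, 131 and 191 FPKM in PEF5, PEF7 and PEF8 and 19.0, 8.56 and 9.70 in piPSC5, piPSC7 and piPSC8. In means this is 167 ± 31.6 against 12.4 ± 5.72 (SD over 3 lines). SEMA3C (ENSSSCG00000023784, chromosome 9 from 99251338 to 99433224) is a repellent or attractant read through neuropilins with plexins A and D, and is needed for the outflow tract of the heart. It stood at 122, 85.1 and 167 FPKM in PEFs and at 3.03, 0.117 and 0.0945 in piPSCs. PEF8 was the highest library and piPSC5 was the piPSC line with the most RNA left, with 263 fragments against 8 and 6 in piPSC7 and piPSC8. SEMA3C fell by 6.15 on the log2 scale (SE 0.55, limma adjusted p = 0.000444), the largest decrease of the 11 on this scale. It made up 68.4%, 65.0% and 87.5% of the class in PEFs and 16.0%, 1.36% and 0.975% in piPSCs.

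SEMA3B and SEMA3F, neighbours on chromosome 13, are secreted semaphorins that slow the growth of tumour cells, and SEMA3F acts chiefly through NRP2. SEMA3B (ENSSSCG00000011400, chromosome 13 from 32740381 to 32753286) stood at 6.26, 13.0 and 7.45 FPKM in PEFs and at 0.545, 0.394 and 0.412 in piPSCs. The 3 piPSC lines lay close together and far under the PEF lines. SEMA3B fell by 2.71 (SE 0.29, limma adjusted p = 0.00078). SEMA3F (ENSSSCG00000011398, chromosome 13 from 32641354 to 32673653) stood at 4.35, 5.998 and 9.49 FPKM in PEFs and at 1.29, 0.776 and 0.679 in piPSCs. PEF8 was the highest, and piPSC5 was the highest of the piPSC lines. SEMA3F fell by 1.95 (SE 0.30, limma adjusted p = 0.00272). Both genes lie on the plus strand. SEMA3F overlaps GNAI2 over 2222 bases of the same strand, and GNAI2 itself stood at between 41.5 and 49.99 FPKM in PEFs and between 6.42 and 29.7 in piPSCs. SEMA3B overlaps LSMEM2 over 88 bases, and LSMEM2 was under 0.9 FPKM in each library.

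SEMA3E, which can bind PLXND1 without a neuropilin, went the other way. SEMA3E (ENSSSCG00000015399, chromosome 9 from 96682090 to 96942685) was counted with 2, 0 and 2 fragments in PEFs and stood at 2.53, 0.323 and 1.32 FPKM in piPSCs. piPSC5 was the highest and piPSC7 the lowest, with 29 fragments. Its pooled ratio was 139 (95% exact Clopper-Pearson interval 54.1 to 514), and 75.4 without piPSC5 and 92.6 without PEF7. It rose by 1.13 on the log2 scale (SE 0.38, limma adjusted p = 0.0438), just within the threshold. The call was lost with the line as a replicate block (1.13, adjusted p = 0.0626), without any filter on low values (adjusted p = 0.0515), without PEF5 or PEF7 (adjusted p = 0.104 in both), without PEF8 (0.0902), without piPSC8 (0.0858) and without line 8 (0.133). It fell under the filter and was not tested at a mean of at least 1 FPKM or without piPSC5.

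SEMA3A, the founding secreted repellent and a ligand of NRP1, was not called in the unblocked fit. It stood at 42.7, 25.1 and 5.61 FPKM in PEFs and at 6.56, 4.06 and 0.958 in piPSCs. The groups overlapped across lines, since PEF8 lay under piPSC5, but each piPSC line lay under its own PEF line. The limma adjusted p was 0.0527. With the line as a replicate block it was called lower (-2.22, adjusted p = 0.00459), as it was under both rescalings (-2.45, adjusted p = 0.0379, and -2.73, adjusted p = 0.0400), without PEF8 (-3.00, adjusted p = 0.0136) and without line 8 (-2.45, adjusted p = 0.00727). SEMA3D, also secreted, was the most abundant class 3 semaphorin by mean in piPSCs, though SEMA3A was above it in piPSC5 and piPSC7. It stood at 4.95, 2.52 and 5.90 FPKM in piPSCs and at 2.96, 1.70 and 1.10 in PEFs. PEF5 lay above piPSC7, so the groups overlapped, but SEMA3D was higher in each piPSC line than in its own PEF line. It was not called (adjusted p = 0.0731) except without piPSC7 (1.18, adjusted p = 0.0308). SEMA3G stayed at or under 0.374 FPKM.

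These genes also share a position that the rule did not use. SEMA3D, SEMA3A, SEMA3E and SEMA3C follow each other on the plus strand of chromosome 9, starting at 95280192, 96066121, 96682090 and 99251338. Within this run SEMA3C fell, SEMA3E rose, and SEMA3A and SEMA3D were not called. Neighbours in this stretch therefore did not share a direction, while SEMA3B and SEMA3F on chromosome 13 did.

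SEMA7A, the single class 7 semaphorin, is held on the cell surface by a lipid anchor and is read by PLXNC1 and by integrins. SEMA7A (ENSSSCG00000023165, chromosome 7 from 59094971 to 59120257) stood at 10.6, 1.63 and 4.98 FPKM in PEFs and at 0.0737, 0.0746 and 0.0202 in piPSCs, which is 5, 4 and 1 fragments. PEF5 was the highest and PEF7 the lowest PEF line, still above all piPSC lines. The pooled ratio of PEFs to piPSCs was 101 (95% exact Clopper-Pearson interval 54.5 to 210), and 55.2 without PEF5. SEMA7A fell by 2.43 on the log2 scale (SE 0.52, limma adjusted p = 0.00893). Its promoter is shown as that of the second largest decrease on log2(FPKM + 1) for which a start could be matched, from RefSeq on Sscrofa11.1 at chr7:59094669-59094968 on the plus strand, with capitals for GGGCGG. With a pseudocount of 0.1 or with voom, its decrease exceeded that of PLXND1.
SEMA7A: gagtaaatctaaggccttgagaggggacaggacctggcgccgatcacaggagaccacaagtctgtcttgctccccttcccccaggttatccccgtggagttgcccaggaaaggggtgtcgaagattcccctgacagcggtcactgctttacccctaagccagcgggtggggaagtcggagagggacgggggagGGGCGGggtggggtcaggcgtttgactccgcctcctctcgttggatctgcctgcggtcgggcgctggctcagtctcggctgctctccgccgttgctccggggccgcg
It holds 1 match and 21 CG dinucleotides, more CG than 60.2% of pig promoters, with 0 matches to TGANTCA and ATTTGCAT.

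The membrane-bound semaphorins of classes 4, 5 and 6 listed by symbol had 0 genes called by limma among 7 tested. Of these, 1 had an unadjusted p under 0.05 and 1 was called lower by voom, which is SEMA4B. Class 4 summed to 15.7 ± 3.67 FPKM in PEFs and 17.3 ± 6.27 in piPSCs (SD over 3 lines), with overlapping libraries. SEMA4C, a ligand of PLXNB2, led the class by mean in PEFs at 4.68, 4.95 and 7.03 FPKM and stood at 4.47, 4.24 and 2.53 in piPSCs. The PEF lines lay just above the piPSC lines, with piPSC8 the lowest. SEMA4F, a transmembrane semaphorin of the nervous system, led by mean in piPSCs at 5.85, 6.99 and 8.05 and stood at 5.84, 4.15 and 5.84 in PEFs. The groups touched without crossing, at PEF5 and piPSC5. In PEF5 SEMA4F was above SEMA4C, and in piPSC7 SEMA4D was above SEMA4F. SEMA4B stood at 1.57, 0.916 and 2.74 FPKM in PEFs and at 0.232, 0.407 and 0.366 in piPSCs, with the groups apart. Its mean FPKM was 5.2-fold lower in piPSCs. On log2(FPKM + 1), which damps changes at low levels, the change was -0.99 (limma adjusted p = 0.0311), just under 2-fold and so not called. SEMA4B was called lower with a pseudocount of 0.1 (-1.98), under the rescalings (-1.09 and -1.68), with limma's voom (-2.25) and without PEF7 (-1.22). SEMA4G was tested and not called, and SEMA4A stayed at or under 0.430 FPKM.

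SEMA5B, the single class 5 gene under its symbol, was at 0, 0.0115 and 0.0127 FPKM in PEFs and 0.689, 0.855 and 0.139 in piPSCs and fell under the filter. In class 6, whose members bind A-type plexins, SEMA6C led in PEFs at 0.554, 0.506 and 0.889 FPKM and was at 0.0937, 0.345 and 0.0466 in piPSCs. Each PEF line lay above each piPSC line, at a level under the filter. SEMA6D led by mean in piPSCs, with SEMA6A above it in piPSC8, at 1.89, 2.88 and 0.0260 FPKM and was at 0.160, 0.180 and 0.350 in PEFs. piPSC8 lay under the PEF lines while piPSC5 and piPSC7 lay above them. SEMA6D was called higher only without piPSC8 (1.45, adjusted p = 0.00742) or without line 8 (1.52, adjusted p = 0.0131). SEMA6A was tested and not called, and SEMA6B stayed at or under 0.283 FPKM.

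Of the 8 tested plexins, the receptors of the semaphorins, 3 were called lower and 0 higher, where 16.7% and 20.2% of all tested genes were, and these counts were not tested against those shares. At an unadjusted p under 0.05, 0 were higher, as with voom. Their summed level was 148 ± 19.6 FPKM in PEFs and 70.0 ± 13.2 in piPSCs (SD over 3 lines), without overlap. PLXNA2 (ENSSSCG00000026412, chromosome 9 from 134584201 to 134796211), a receptor for class 6 semaphorins and, with neuropilins, for class 3, stood at 35.1, 25.1 and 17.4 FPKM in PEFs and at 0.801, 1.04 and 0.0764 in piPSCs. Every PEF line was far above every piPSC line, and piPSC8 was the lowest with 6 fragments. PLXNA2 fell by 4.03 on the log2 scale (SE 0.35, limma adjusted p = 0.000426). PLXND1 (ENSSSCG00000011592, chromosome 13 from 68946661 to 68996606), the receptor of SEMA3E and SEMA3C in vessels, stood at 10.99, 8.22 and 14.3 FPKM in PEFs and at 0.403, 0.688 and 0.234 in piPSCs. All 3 piPSC lines were under 1 FPKM. PLXND1 fell by 3.06 (SE 0.26, limma adjusted p = 0.000416).

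PLXNB2 (ENSSSCG00000035733, chromosome 5 from 390363 to 418324), a receptor for class 4 semaphorins, was the most abundant plexin by mean in both groups. It stood at 78.4, 74.1 and 66.8 FPKM in PEFs and at 42.9, 38.2 and 18.2 in piPSCs. The groups did not overlap, and piPSC8 was the lowest. PLXNB2 fell by 1.20 (SE 0.32, limma adjusted p = 0.0192). The call was lost without PEF5 (-1.15, adjusted p = 0.0601), without PEF7 (-1.19, adjusted p = 0.0551), and, by falling under 2-fold, without piPSC8 (-0.83, adjusted p = 0.0117) or line 8 (-0.90, adjusted p = 0.0177). PLXNA3 had an adjusted p of 0.0464 and less than a 2-fold change, and was called lower under the rescalings (-1.05 and -1.25), with limma's voom (-1.02) and without piPSC7 (-1.01). PLXNA1, PLXNB1 and PLXNC1 were tested and not called, with overlapping groups, and PLXNA4 stayed at or under 0.868 FPKM and was not tested.

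The PLXND1 promoter is shown as that of the largest decrease on log2(FPKM + 1) for which a start could be matched, from RefSeq on Sscrofa11.1 at chr13:68996576-68996875 on the minus strand. Capitals mark GGGCGG or CCGCCC.
PLXND1: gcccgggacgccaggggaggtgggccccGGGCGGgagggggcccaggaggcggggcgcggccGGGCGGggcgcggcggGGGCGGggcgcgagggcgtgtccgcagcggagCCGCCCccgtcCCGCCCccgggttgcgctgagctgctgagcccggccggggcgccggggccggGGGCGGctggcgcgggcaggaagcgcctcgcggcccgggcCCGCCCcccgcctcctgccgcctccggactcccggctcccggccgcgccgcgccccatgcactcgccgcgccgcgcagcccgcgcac
It is 87.7% G or C, against a median of 58.7%, and holds 52 CG dinucleotides, more than 97.9% of pig promoters. It has 7 matches to GGGCGG on either strand and 0 to TGANTCA and ATTTGCAT. The 4 promoters shown thus include CG-rich ones of genes that fell and of genes that rose.

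Neuropilins, the co-receptors of class 3 semaphorins, had 0 genes called by limma among 2 tested, and also 0 at an unadjusted p under 0.05 and 0 by voom. NRP2 (ENSSSCG00000026383, chromosome 15 from 108974684 to 109093525), the main co-receptor of SEMA3F, stood at 23.0, 12.4 and 5.72 FPKM in PEFs and at 2.195, 1.02 and 36.5 in piPSCs. In lines 5 and 7 the piPSC library was lower than the PEF library, and in line 8 it was higher. The log2 ratios of the lines were -2.91, -2.73 and 2.48, and the limma adjusted p was 0.45. Without piPSC8, NRP2 was called lower (-2.35, adjusted p = 0.0185), as it was without line 8 (-2.82, adjusted p = 0.00696). By the ratio of (FPKM + 1), only NRP2 was at least 2-fold lower in some lines and at least 2-fold higher in another. That is 1.82% of the 55 against 0.927% of all genes. This ratio damps changes at low levels. SEMA4D and SEMA6D, low in PEFs, also rose in lines 5 and 7 and fell in line 8. Their log2 ratios were 1.68, 3.1 and -0.73 for SEMA4D and 1.32, 1.72 and -0.4 for SEMA6D. The mean neuropilin sum in piPSCs was 15.2 ± 18.8 FPKM (SD over 3 lines) and went to 4.40 without piPSC8.

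The SLIT and ROBO genes listed by symbol showed a receptor change beside an uneven ligand, SLIT2. SLIT3, which is listed by identifier only, was called lower (-2.55, limma adjusted p = 0.0155) and is described under other observations. ROBO1 (ENSSSCG00000012001, chromosome 13 from 175980910 to 176479481), a SLIT receptor present in many tissues, stood at 37.3, 23.4 and 32.7 FPKM in PEFs and at 17.0, 6.84 and 8.43 in piPSCs. Each piPSC line lay under every PEF line but kept several FPKM. ROBO1 fell by 1.52 on the log2 scale (SE 0.35, limma adjusted p = 0.0112), a call that was lost without line 8 (-1.36, adjusted p = 0.0650). ROBO2 (ENSSSCG00000012002, chromosome 13 from 177369577 to 177723151), the SLIT receptor of commissural axons and of the budding kidney, was counted with 0, 4 and 4 fragments in PEFs and stood at 5.27, 11.9 and 5.58 FPKM in piPSCs. piPSC7 was the highest, and all piPSC lines were far above the PEF lines. The pooled ratio was 204 (95% exact Clopper-Pearson interval 103 to 473), and 131 without PEF5. ROBO2 rose by 2.96 (SE 0.32, limma adjusted p = 0.00081).

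The pair of receptors changed its balance in all 3 lines. ROBO1 made up 99.4%, 99.4% and 99.3% of the ROBO sum in PEFs and 76.3%, 36.5% and 60.2% in piPSCs. ROBO2 took 23.7%, 63.4% and 39.8% in piPSCs, so it led in piPSC7. The genes are neighbours on chromosome 13, with ROBO1 on the plus strand and ROBO2 on the minus strand, and yet went opposite ways. ROBO3 and ROBO4, at no more than 0.228 and 0.0148 FPKM, were not tested. SLIT2, the ligand of both receptors, stood at 3.75, 5.07 and 29.2 FPKM in PEFs and at 7.01, 1.84 and 0.508 in piPSCs. The groups overlapped, with PEF8 the highest by far and piPSC8 the lowest, and the limma adjusted p was 0.171. The SLIT sum holds only SLIT1 and SLIT2. SLIT3, at 6.99, 13.5 and 1.32 FPKM in PEFs and 0.0430, 0.163 and 0.0979 in piPSCs, is not in it. The mean SLIT sum in PEFs was 12.7 ± 14.3 FPKM (SD over 3 lines) and went to 4.44 without PEF8. In piPSCs the mean went from 3.15 to 1.22 without piPSC5. SLIT1 was under 0.1 FPKM in each library.

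**Figure D3:**
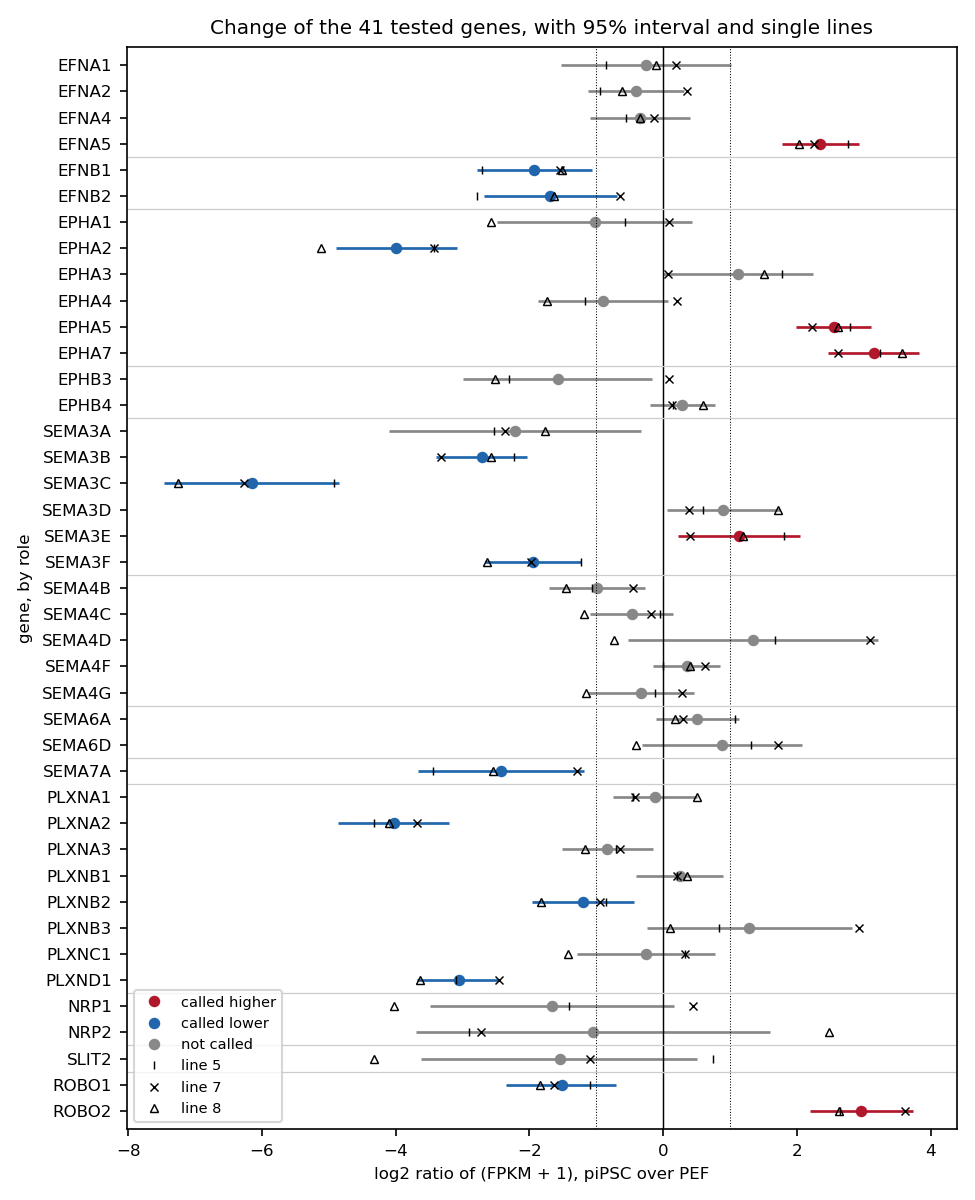
Log2 ratio of (FPKM + 1), piPSC over PEF, for the 41 tested genes, with the 95% interval of the fit as a bar and the 3 lines as separate marks. The called genes run from -6.15 for SEMA3C to 3.15 for EPHA7, and dotted lines mark 2-fold.

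A count within lines gave much the same picture without a test. Each piPSC line was set against its own PEF line by the ratio of (FPKM + 1). At least 2-fold higher were 9, 7 and 8 guidance genes in lines 5, 7 and 8 (16.4%, 12.7% and 14.5% of the 55), beside 15.5%, 17.9% and 16.9% of all genes. At least 2-fold lower were 16, 12 and 22 (29.1%, 21.8% and 40.0%), beside 13.0%, 12.01% and 17.1% of all genes, so that line 8 had the most lower genes in both. In all 3 lines, 4 genes were at least 2-fold higher (EFNA5, EPHA5, EPHA7 and ROBO2), beside 8.82% of all genes, and 10 were at least 2-fold lower (EFNB1, EPHA2, PLXNA2, PLXND1, ROBO1, SEMA3A, SEMA3B, SEMA3C, SEMA3F and SEMA7A), beside 8.21% of all genes. Of these 14, 13 were also called by limma, and SEMA3A was not.

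Several uncalled genes split by line, and these were picked out after their values were seen. EPHA3, a receptor for ephrin-A ligands, stood at 2.43, 0.0507 and 1.98 FPKM in piPSCs and 0, 0 and 0.0497 in PEFs. EPHA4, which binds both classes of ephrin, stood at 0.0899, 1.48 and 0.0614 in piPSCs and 1.45, 1.15 and 2.52 in PEFs. For EPHA3, piPSC7 stayed near the PEF level while piPSC5 and piPSC8 were higher, and for EPHA4, as for EPHB3, piPSC7 stayed near the PEF level while piPSC5 and piPSC8 were near 0. Without piPSC7, EPHA3 was called higher (1.65, adjusted p = 0.00473) and EPHA4 lower (-1.30, adjusted p = 0.0187). SEMA4D, a ligand of PLXNB1, stood at 2.66, 9.30 and 0.0396 in piPSCs and 0.140, 0.202 and 0.719 in PEFs. It was called higher without piPSC8 (2.21, adjusted p = 0.0145) and without line 8 (2.39, adjusted p = 0.0209). PLXNB3, a receptor of class 5 semaphorins, stood at 0.914, 6.70 and 0.312 in piPSCs and 0.0671, 0.00895 and 0.227 in PEFs, with piPSC7 far above the rest. It was called higher without piPSC8 (1.81, adjusted p = 0.0474). NRP1, a co-receptor that also binds VEGF, stood at 4.63, 3.00 and 20.5 in PEFs and 1.11, 4.47 and 0.324 in piPSCs, with PEF8 the highest. The difference between lines was not tested, as each line has 1 library per state.

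**Figure D4:**
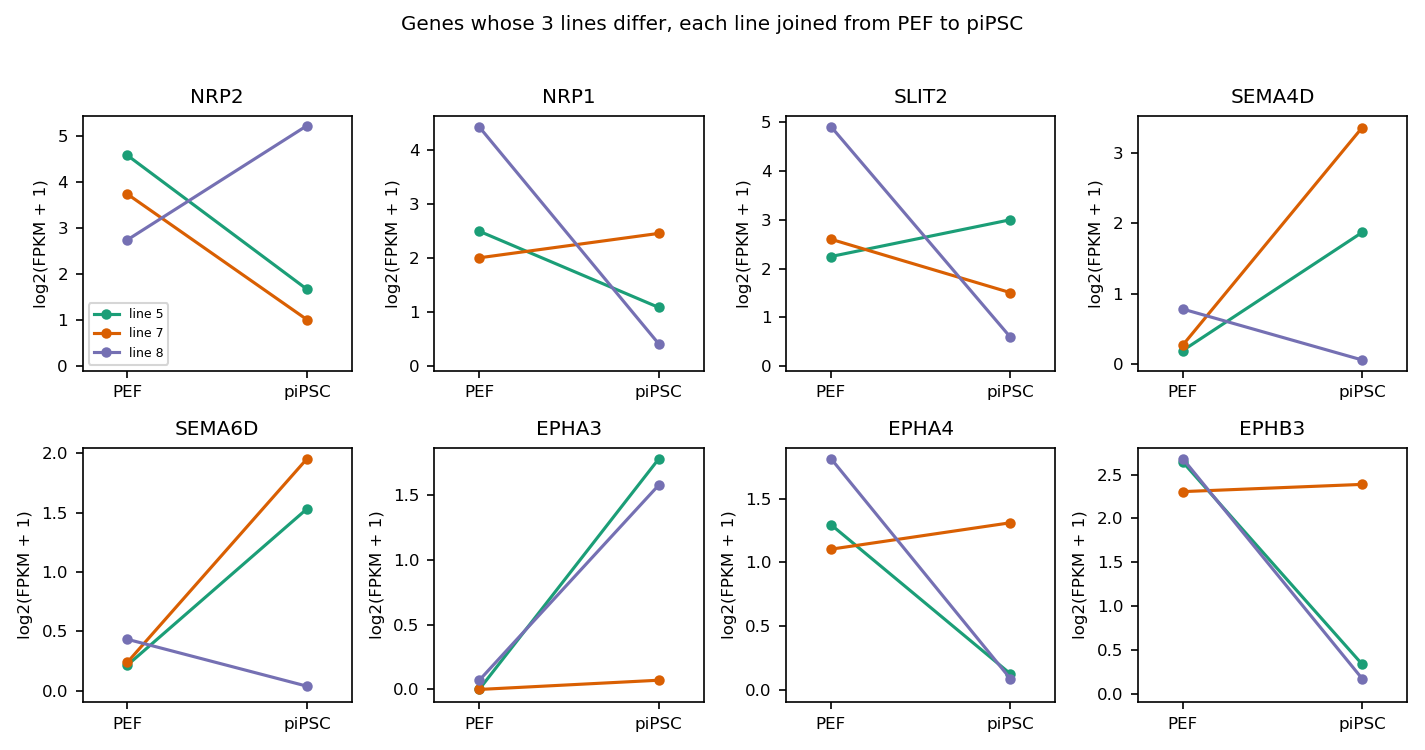
Log2(FPKM + 1) of 8 uncalled genes picked for their spread, with each line joined from PEF to piPSC. NRP2 goes up in line 8 (from 5.72 to 36.5 FPKM) and down in lines 5 and 7, while EPHB3 stays level in line 7 alone.

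Genes around the guidance receptors were read from the same fit. The 5 lists of netrin and RGM ligands, their receptors, and effectors of Eph, plexin and ROBO signalling hold 86 genes, of which 81 were in the table and 67 were tested. Of these, 4 were called higher (5.97%) and 15 lower (22.4%), with a median log2 change of -0.52. Over all tested genes the shares were 20.2% and 16.7%, and the lists were not tested against them. The netrin and RGM ligands had 1 higher and 2 lower of 6 tested, their receptors 1 and 1 of 4, the Eph effectors 0 and 3 of 17 (2 higher at an unadjusted p under 0.05 and 2 by voom), the plexin effectors 1 and 5 of 20, and the ROBO effectors 1 and 4 of 20.

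The 4 genes called higher were a receptor, a ligand and 2 cytoskeletal regulators. UNC5C (ENSSSCG00000021874), a netrin receptor that mediates repulsion, stood at 0.459, 0.591 and 0 FPKM in PEFs and 23.5, 5.67 and 13.0 in piPSCs. All piPSC lines were above all PEF lines, with piPSC5 the highest, and UNC5C rose by 3.31 on the log2 scale (SE 0.48, limma adjusted p = 0.0022). ARHGAP39 (ENSSSCG00000005894), a GTPase-activating protein that binds ROBO receptors, stood at 3.74, 3.58 and 2.56 in PEFs and 13.6, 9.54 and 10.3 in piPSCs and rose by 1.5 (SE 0.22, limma adjusted p = 0.00212). MICAL3 (ENSSSCG00000000770), of the oxidase family that acts on actin downstream of plexins, stood at 3.29, 2.49 and 3.06 in PEFs and 8.69, 6.62 and 10.4 in piPSCs and rose by 1.26 (SE 0.22, limma adjusted p = 0.00402). The groups of both genes were apart. RGMB (ENSSSCG00000014176), a membrane-anchored ligand of neogenin, stood at 7.21, 8.20 and 7.49 in PEFs and 15.2, 20.7 and 16.5 in piPSCs and rose by 1.09 (SE 0.17, limma adjusted p = 0.00301), which went under 2-fold under both rescalings (0.84 and 0.83) and without piPSC7 (0.97).

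The 5 largest decreases of log2(FPKM + 1) on these lists included a ligand, a receptor and a proteoglycan of the cell surface. NTN1 (ENSSSCG00000017993), the axon attractant netrin-1, stood at 11.3, 9.68 and 10.4 FPKM in PEFs and 0.324, 0.0630 and 0 in piPSCs. UNC5B (ENSSSCG00000010276), a netrin receptor of vessels, stood at 11.4, 14.5 and 3.76 in PEFs and 1.22, 0.169 and 0.159 in piPSCs. Ligand and receptor were both lower in all 3 piPSC lines, NTN1 by a log2 change of -3.35 (SE 0.21, limma adjusted p = 0.000192) and UNC5B by -2.75 (SE 0.50, limma adjusted p = 0.00503). GPC1 (ENSSSCG00000016364), a heparan sulfate proteoglycan that binds SLITs, stood at 29.7, 31.0 and 44.7 in PEFs and 1.68, 3.74 and 0.396 in piPSCs, a change of -3.77 (SE 0.44, limma adjusted p = 0.00106). RND1 (ENSSSCG00000038562), a small GTPase that binds plexins, stood at 21.1, 31.4 and 5.30 in PEFs and 0.501, 0.453 and 0.0815 in piPSCs, a change of -3.63 (SE 0.59, limma adjusted p = 0.00323). No piPSC line reached the PEF range in either gene. FYN (ENSSSCG00000004421), a kinase used by Eph and plexin receptors, stood at 16.8, 28.0 and 21.9 in PEFs and 6.40, 5.48 and 0.481 in piPSCs, with piPSC8 the lowest, a change of -2.46 (SE 0.62, limma adjusted p = 0.016) that was lost as a call without PEF7 (-2.28, adjusted p = 0.0554).

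Markers of nerve cells were read beside the higher genes, since EPHA5, EPHA7, EFNA5, ROBO2 and UNC5C are known from the developing nervous system. Of 10 neuron markers, all in the table, 5 were tested and 2 were called higher by limma (SYT1 and ELAVL4) and 1, SYT1, by voom (for ELAVL4 the voom adjusted p was 0.0535). Their summed FPKM was 23.8, 11.7 and 35.8 in PEFs and 40.5, 74.8 and 16.4 in piPSCs, with TUBB3 the most abundant in both groups (20.2, 9.79 and 24.6 in PEFs and 20.3, 58.8 and 10.5 in piPSCs). The sums overlapped, DCX was under 0.2 FPKM in each library, and ELAVL3 was at 0 in PEFs and under 0.2 in piPSCs. Other neuron markers went down or split. RBFOX3, under the filter, was at 0.514, 0.355 and 0.290 in PEFs and 0, 0.0321 and 0.0347 in piPSCs. MAP2 was lower in each line and not called (-0.35). STMN2 was at 0.0245, 0 and 8.6 in PEFs and 5.63, 1.65 and 0.278 in piPSCs and was not called. Of the rest, both under the filter, GAP43 was higher in piPSCs and SNAP25 overlapped. Of genes marking neural progenitors, FABP7 had 0 fragments in PEFs, stood at 2.07, 0.231 and 2.46 FPKM in piPSCs and was called higher (1.24, SE 0.42, limma adjusted p = 0.0454). NES was at 14.5, 0.969 and 5.73 in PEFs and 4.25, 0.900 and 0.368 in piPSCs and was not called, and OTX2 was at 0 in PEFs and at most 0.0544 in piPSCs. The part of nerve-type cells in the higher genes was not tested.

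Of the 6 marker lists for other cell types, none held a gene called higher by limma or by voom. The endothelial markers, 9 of them present, had 0 called of 2 tested, with ERG highest by mean in PEFs (7.98, 8.62 and 0.164), TEK by mean in piPSCs (0.230, 0.918 and 0), and KDR and CDH5 under 0.02 in each library. Glial and melanocyte markers had 0 called of 1 tested, and MITF led in both groups (2.16, 2.17 and 2.89 in PEFs and 4.18, 3.95 and 3.69 in piPSCs). Chondrocyte markers had 1 called lower of 3 tested, which was SOX9 and led in PEFs (2.15, 4.501 and 0.501), and HAPLN1 led by mean in piPSCs (30.8, 0.732 and 5.22), with MATN3 above it in piPSC7. Muscle markers had 0 called of 2 tested, with TNNT1 leading in PEFs (2.48, 0.775 and 15.7) and DES by mean in piPSCs (0.165, 14.2 and 2.52). Keratinocyte markers had 0 called of 2 tested, and KRT10 led in both (2.92, 2.77 and 3.13 in PEFs and 5.09, 5.24 and 4.52 in piPSCs). KRT10 was higher with a limma adjusted p of 0.0291 but less than a 2-fold change (0.59). At an unadjusted p under 0.05, ERG was lower, MITF was higher, and 0 muscle markers passed. Blood cell markers had 1 called lower of 2 tested, which was CD14 and led in PEFs (9.20, 21.9 and 13.1), and CD68 led in piPSCs (1.99, 0.804 and 2.71). Fragments from the mouse feeder cells under the piPSCs cannot be told apart from pig fragments in these values, and their part was not tested.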

How the data were processed

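Poly-A RNA of 3 PEF lines and the 3 piPSC lines made from them was sequenced in 6 libraries. The authors deposited FPKM per gene on Sscrofa11.1. The submitters' notes name Bowtie2 2.2.3, HISAT2 2.1.0 and HTSeq 0.6.0 without their roles. All columns used were matched to samples, and 0 were left unmatched. FPKM values lay within 0.0001 of whole multiples of 1 fragment, so fragments were recovered for 18007 of 18007 genes (100%). The distance allowed grew with the value and was at most 0.0008. With each value of 500 genes altered at random by up to 10%, 15 genes were recovered, and 0 of the 337 with fragments in all libraries. Groups were compared with limma 3.58.1 (trend, not robust) in R 4.3.3 on log2(FPKM + 1), two-sided, with Benjamini-Hochberg adjustment over 12428 genes with a mean of at least 0.5 FPKM, and checked on simulated data. Summaries used Python 3.11.15, numpy 2.4.6, pandas 2.3.3, scipy 1.17.1 and matplotlib 3.10.9. Libraries form pairs by cell line, because each piPSC line derives from the like-numbered PEF line. Departures from group means correlated at 0.09, 0.09 and 0.08 across genes within lines and at -0.12 to 0.06 between lines. Genes are not independent replicates. The main fit was fixed without pairing before the files were seen, and pairing, with the line as a replicate block, was tried as an alternative. The study compared each piPSC line with its own PEF line. Other alternatives were a pseudocount of 0.1, no filter or a mean of at least 1 FPKM, rescaling to the median ratio or a sum of 1000000, voom on recovered fragments, each library left out, and, chosen after seeing the data, both libraries of line 8 left out. Values in each library are given for called genes and the most abundant gene of each role and group, and of the pathway lists for up to 5 called genes higher and 5 lower with the largest changes. Members and lists were chosen with earlier results of these data known. Promoters were matched to 55 of 55 genes through RefSeq, and 22 starts lay within 100 bases. The neural progenitor markers as a set are not reported here.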

Additional observations from a re-analysis of the deposited data

Results flagged for a closer look

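NRP2 was picked out because its lines moved opposite ways. The log2 ratio of piPSC to PEF was -2.91 in line 5, -2.73 in line 7 and 2.48 in line 8, so that line 8 differed by 5.39 on the log2 scale from the line farthest from it. The difference was not tested, since each line has 1 library per state.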

How the results depend on the processing

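Under 14 alternatives, the 25 called genes named here (16 guidance and 9 others of the pathway) gave 348 values, of which 330 were called the same way, 18 were no longer called and 0 were reversed, and 19 genes were called in each alternative that tested them. The calls lost were those of PLXNB2, SEMA3E, ROBO1, EFNB2, RGMB and FYN. With the line as a replicate block, 4 guidance genes were called higher and 12 lower, SEMA3E lost its call, SEMA3A gained one, and no other call of the 55 changed. Across single libraries left out, called guidance genes ran from 4 to 7 higher and from 10 to 14 lower, and all called genes from 2217 to 2641 higher and from 1836 to 2075 lower. Guidance genes at least 2-fold in all 3 lines numbered 14, against 9 at 4-fold, which the stricter threshold makes by its construction, and from 15 to 21 with a line left out. Of 52 sums over role classes under the 2 rescalings, 26 moved by more than their SD, all when values were rescaled to a sum of 1000000, which multiplies each sum. Leaving out 1 of 3 libraries cannot move a mean by 1 SD, so those 78 sums were compared by ratio, and 4 changed by over 1.5 times, the neuropilin sum in piPSCs (from 15.2 to 4.40 without piPSC8), the SLIT sums (PEFs from 12.7 to 4.44 without PEF8, piPSCs from 3.15 to 1.22 without piPSC5) and SEMA7A in PEFs (from 5.75 to 3.31 without PEF5). Genes with few fragments in a group are limited by depth, and voom and the smaller pseudocount gave them larger changes, up to 10.95 for EPHA7. With each library left out, a comparison added after the results were written, the pooled ratios of EPHA5, ROBO2, SEMA3E and SEMA7A moved by over 1.5 times in 5 of 24 values, which the report gives, and the bound of EPHA7 ran from 288 to 408.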

Other observations

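The table also holds 9 features of these families that it lists by identifier and not by symbol, so that the rule did not take them, and they were singled out after their values were seen. SLIT3 (ENSSSCG00000017012), a secreted SLIT, stood at 6.99, 13.5 and 1.32 FPKM in PEF5, PEF7 and PEF8 and at 0.0430, 0.163 and 0.0979 in piPSC5, piPSC7 and piPSC8. It fell by 2.55 on the log2 scale (SE 0.63, limma adjusted p = 0.0155), while the SLIT2 row described in the report was not called. SEMA5A (ENSSSCG00000017095), a membrane-bound class 5 semaphorin, stood at 1.74, 1.53 and 1.09 in PEFs and 0.0239, 0 and 0.0982 in piPSCs. It fell by 1.23 (SE 0.23, limma adjusted p = 0.00503), and its groups were apart. EPHA6 (ENSSSCG00000033898), an EPHA receptor of the brain, was at 0 in all PEF libraries and at 2.60, 0.199 and 3.06 in piPSCs. It rose by 1.38 (SE 0.48, limma adjusted p = 0.0497), with piPSC7 near 0, as was the case for EPHA3. That adjusted p is only just within the threshold, and calls under the alternatives are not given for the genes listed by identifier. EFNA3 (ENSSSCG00000006531), an ephrin-A ligand, stood at 2.46, 3.04 and 1.27 in PEFs and 0.233, 1.48 and 0.319 in piPSCs and was not called (limma adjusted p = 0.0602).

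A further 5 features carry a family name only in their description. The feature ENSSSCG00000012003, described as Roundabout homolog 2, stood at 0, 0 and 0.182 FPKM in PEFs and 6.22, 9.03 and 7.51 in piPSCs. It rose by 3.01 (SE 0.22, limma adjusted p = 0.000295), and like the ROBO2 row it was highest in piPSC7. The feature ENSSSCG00000029791, described as Slit homolog 2 protein, stood at 2.32, 1.17 and 16.5 in PEFs and 9.12, 3.11 and 1.39 in piPSCs, with PEF8 the highest as in the SLIT2 row. The other 3, described as Slit homolog 3 protein, Plexin-A4 and Ephrin type-A receptor 6, did not exceed 1.80 FPKM in any library.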
